A study of Mus musculus with 8 samples.

Results

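Bcl6 and Lpp are neighbouring genes on mouse chromosome 16. They were chosen by earlier results on these arrays, namely the mean difference in signal between the genotypes, and every probe set whose only gene symbol in the platform annotation is Bcl6 or Lpp was taken. This gave 2 of the 19938 genes with a named probe set, with 1 probe set for Bcl6 and 3 for Lpp; no probe set carried either symbol together with another. Because the comparison of the genotypes chose both genes, their differences are given below as a description, with a standard error and without a test.

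The study hybridised RNA from mouse CD4 T cells to Affymetrix whole-transcript arrays, 4 arrays labelled WT (wild type) and 4 labelled KO (T cell-specific conditional Bcl6-/-). In both groups naive CD4 T cells, called follicular helper T (Tfh) cells after culture, received anti-CD3 and anti-CD28 for 24 hours together with IL-6, IL-21 and antibodies that block TGF beta, IL-4 and interferon gamma. The Cre driver, the deleted exons, the strain background, the age and sex of the mice, and whether replicate arrays stand for different mice are not given in the sources used here. The p-values below therefore measure only the spread between these arrays, which may be technical.

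Bcl6 is a transcriptional repressor with a BTB domain, which recruits corepressors, and C2H2 zinc fingers, which bind DNA. It is required for the Tfh fate and for germinal centre B cells, its transcription is raised by cytokines that act through STAT3 and lowered through STAT5, and its protein can repress its own gene. Lpp, the lipoma preferred partner, belongs to the zyxin family of LIM-domain proteins, which sit at focal adhesions and cell contacts, bind actin regulators of the VASP family and can enter the nucleus. In human germinal centre B cells the interval between BCL6 and LPP holds distal elements that act on BCL6.

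In the gene table used for names (assembly GRCm38.p6), Bcl6 lies on the minus strand and Lpp on the plus strand, so that both genes start towards the interval between them. The table places 7 entries wholly inside that interval, of which 0 are protein coding and 0 have a named probe set, and 5 entries wholly inside Lpp, of which 1, the microRNA gene Mir28a, has one. The RefSeq promoter table of the same assembly holds 2 start windows for each gene, from 250 bases before to 50 bases after a start. All 4 are shown because the 2 genes differed in the same direction and because Bcl6 is known to respond to STAT factors and to bind its own gene. Capitals mark matches to TTCNNNGAA, the core of STAT sites, or to TTCCTNGAA, a core close to the Bcl6 site, which is a special case of the former; both strands were searched. Sequences run 5′ to 3′ on the strand of the gene.
Bcl6, upstream start, chr16:23988803-23989102, minus strand: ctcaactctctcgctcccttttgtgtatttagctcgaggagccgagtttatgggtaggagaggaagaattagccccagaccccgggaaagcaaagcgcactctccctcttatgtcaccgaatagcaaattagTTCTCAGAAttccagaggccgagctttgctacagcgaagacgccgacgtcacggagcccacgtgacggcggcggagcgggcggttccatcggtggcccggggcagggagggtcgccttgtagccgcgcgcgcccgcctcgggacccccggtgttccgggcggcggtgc
Bcl6, downstream start, chr16:23981234-23981533, minus strand: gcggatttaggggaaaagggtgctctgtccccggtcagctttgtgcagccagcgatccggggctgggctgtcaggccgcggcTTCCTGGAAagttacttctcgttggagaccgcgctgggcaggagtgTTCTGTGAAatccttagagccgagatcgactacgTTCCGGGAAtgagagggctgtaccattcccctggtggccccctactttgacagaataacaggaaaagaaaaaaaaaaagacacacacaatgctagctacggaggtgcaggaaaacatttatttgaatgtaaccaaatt
Lpp, upstream start, chr16:24393100-24393399, plus strand: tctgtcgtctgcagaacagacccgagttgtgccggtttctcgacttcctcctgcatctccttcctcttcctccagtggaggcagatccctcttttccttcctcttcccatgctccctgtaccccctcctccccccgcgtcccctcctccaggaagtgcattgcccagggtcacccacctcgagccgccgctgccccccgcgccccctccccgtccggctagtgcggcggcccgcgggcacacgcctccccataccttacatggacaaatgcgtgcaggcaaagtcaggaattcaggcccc
Lpp, downstream start, chr16:24721605-24721904, plus strand: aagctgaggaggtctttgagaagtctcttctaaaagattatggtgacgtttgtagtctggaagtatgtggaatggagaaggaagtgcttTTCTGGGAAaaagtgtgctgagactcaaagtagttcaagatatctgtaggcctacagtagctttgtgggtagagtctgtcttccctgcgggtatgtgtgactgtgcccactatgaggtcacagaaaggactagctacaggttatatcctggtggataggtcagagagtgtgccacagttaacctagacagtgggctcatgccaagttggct

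The window at the downstream start of Bcl6 held 3 matches to TTCNNNGAA, which were TTCCTGGAA, TTCTGTGAA and TTCCGGGAA, and the first of these also matches TTCCTNGAA. The window at its upstream start held 1, TTCTCAGAA. The downstream start of Lpp held 1, TTCTGGGAA, and the upstream start of Lpp held 0. Of the 32851 windows in the table, 8.30% held at least 1 match to TTCNNNGAA, 0.0335% (11 windows) held 3 or more, and 1.59% held TTCCTNGAA. The cut-off of 3 equals the count in the downstream Bcl6 window, so nothing is read from the share of 0.0335%. These matches describe letters in the windows, and no binding was measured.

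Bcl6 itself was higher in the arrays labelled KO. Its probe set, 10438738, read 8.61, 8.91, 8.78 and 8.79 on the log2 scale in WT replicates 1 to 4 and 9.08, 9.15, 9.18 and 9.19 in KO replicates 1 to 4. The lowest KO-labelled value lay 0.17 above the highest WT-labelled value, so the groups did not overlap, and WT replicate 1 was the lowest of the 8. The means were 8.77 ± 0.123 (SD, n = 4) and 9.15 ± 0.0497 (SD, n = 4), a KO minus WT difference of 0.38 ± 0.0646 (SE) or 1.30-fold. The annotation lists 4 transcript records for this probe set, and whether its probes overlap the exons removed in the knockout is not given in the sources used here. The probe set therefore does not check the genotype labels, and directions below are those of the arrays as labelled.

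Lpp was higher in the KO-labelled arrays in each of its 3 probe sets. Probe set 10434806, which the annotation ties to 3 curated RefSeq messenger RNAs of the gene, read 10.08, 10.22, 10.15 and 10.25 in WT replicates 1 to 4 and 11.21, 11.24, 11.25 and 11.22 in KO replicates 1 to 4. The KO-labelled values lay within 0.04 of each other and the lowest of them stood 0.96 above the highest WT-labelled value. The means were 10.2 ± 0.0759 and 11.2 ± 0.0183 (SD, n = 4), a difference of 1.05 ± 0.0488 (SE), or 2.08-fold.

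Probe set 10434782 of Lpp, tied to the same 3 messenger RNAs and to 6 other records, read 9.28, 9.42, 9.29 and 9.45 in WT replicates 1 to 4 and 10.30, 10.38, 10.12 and 10.16 in KO replicates 1 to 4. Its groups stood 0.67 apart at their nearest values, and the difference of means was 0.88 ± 0.0699 (SE), or 1.84-fold. Probe set 10434802, tied to 2 records that are not curated messenger RNAs, 1 of them shared with 10434782, read 7.62, 7.42, 7.44 and 7.69 in WT replicates 1 to 4 and 8.08, 8.32, 8.31 and 8.24 in KO replicates 1 to 4. Its nearest values were 0.39 apart and its difference was 0.70 ± 0.0779 (SE), or 1.62-fold. The 3 Lpp differences thus ran from 0.70 to 1.05, and each was larger than the Bcl6 difference of 0.38. Probe set 10434782 shares 3 transcript records with 10434806 and 1 with 10434802, while 10434802 and 10434806 share 0. All 3 were read on the same arrays, so they are not independent measurements of the gene.

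All 4 probe sets of Bcl6 and Lpp lay above the expression filter (the 40th percentile of the named probe sets, 6.91 to 7.15 depending on the array) in all 8 arrays, and in all 4 every KO-labelled value exceeded every WT-labelled value. Over the 13115 named probe sets above the filter the same held for 3.18%. Since this contrast chose the genes, nothing is read from that comparison. By size of rise among the 13115, the Lpp probe sets ranked 8 (10434806), 11 (10434782) and 22 (10434802), and Bcl6 ranked 92. The spread of Lpp over the KO-labelled arrays depended on the probe set. The SD of 10434806, 0.0183, was matched or undercut by 1.66% of the 11926 tested genes, and that of Bcl6, 0.0497, by 16.8%. The median over tested genes was 0.0995. Lpp probe sets 10434782 and 10434802 had SDs of 0.121 and 0.111 over the same arrays, above that median and above Bcl6. Over the WT-labelled arrays the SDs of Lpp (10434806) and Bcl6, 0.0759 and 0.123, both lay above the median of 0.0704.

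**Figure D1:**
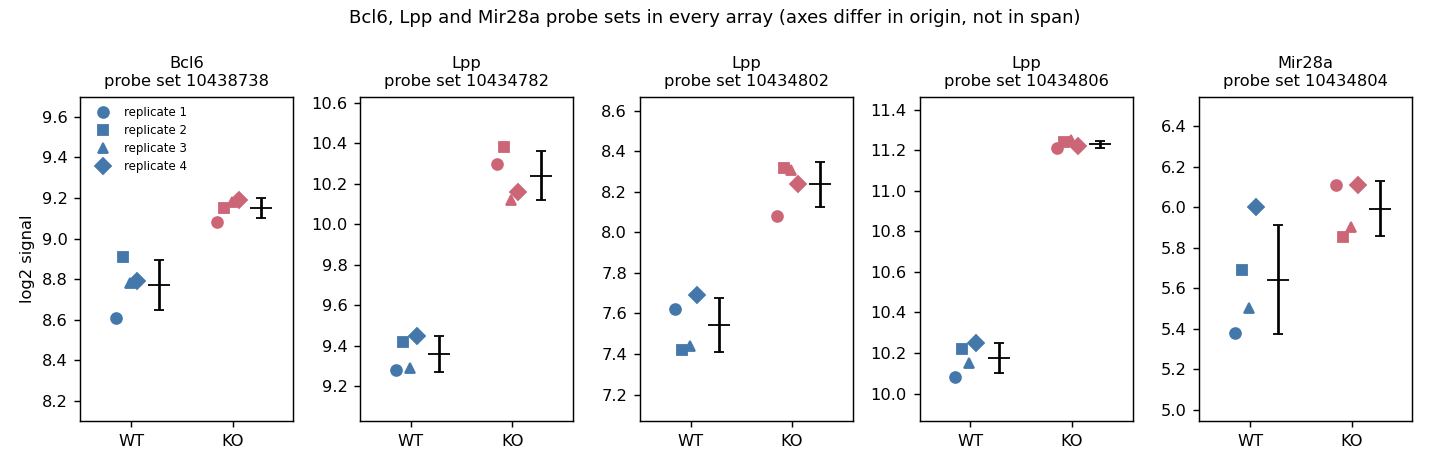
Log2 signal of the Bcl6 probe set, the 3 Lpp probe sets and the Mir28a probe set in each of 4 WT-labelled (blue) and 4 KO-labelled (red) arrays, with marker shapes for replicate numbers and the group mean ± SD in black. The axes span the same range from different origins. The groups do not overlap in the Bcl6 and Lpp probe sets, with nearest values 0.17 to 0.96 apart, and they overlap in Mir28a.

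Set against the mean of the WT-labelled arrays, KO replicates 1 to 4 stood 1.03, 1.06, 1.07 and 1.05 higher in Lpp probe set 10434806. In Bcl6 they stood 0.31, 0.38, 0.41 and 0.42 higher. KO replicate 1 was the lowest KO-labelled array for Bcl6, and for Lpp probe sets 10434802 and 10434806, but not for 10434782, where KO replicate 3 was. Over all tested genes KO replicate 1 stood apart: its median deviation from the group mean was 0.115, against 0.0400 to 0.0725 in the other 3 KO-labelled arrays, and its best match among the other 7 arrays was WT replicate 3. Without KO replicate 1 the differences were 0.40 for Bcl6 and 1.06, 0.86 and 0.75 for Lpp probe sets 10434806, 10434782 and 10434802. Without both KO replicate 1 and WT replicate 3 they were 0.40, 1.05, 0.84 and 0.71.

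With each gene represented by its brightest probe set, Lpp ranked 8 of 11926 by size of rise and Bcl6 ranked 79. The gap between the groups was at least as wide as that of Lpp in 2 genes, Lpp included, and at least as wide as that of Bcl6 in 41, Bcl6 included.

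**Figure D2:**
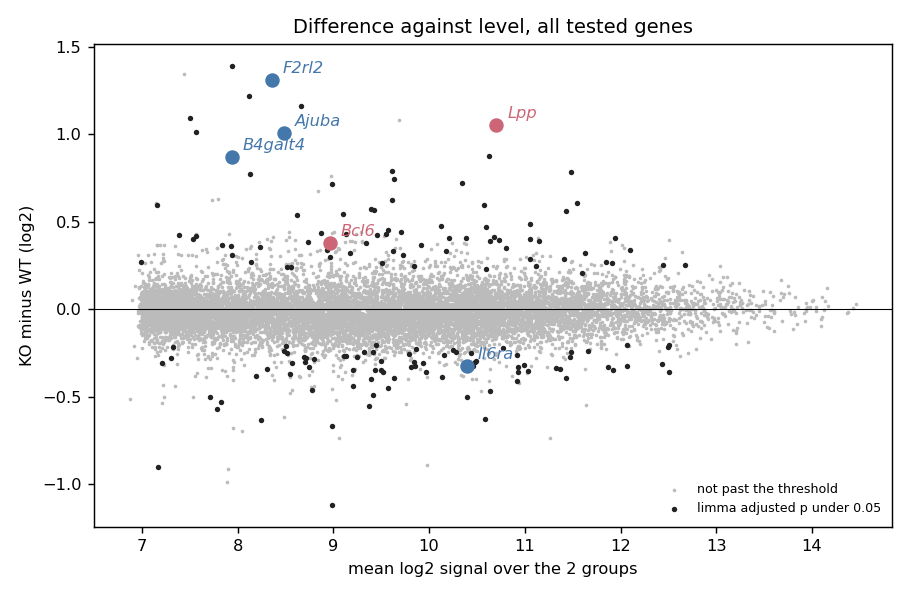
KO minus WT difference (log2) against mean log2 signal for the 11926 tested genes, with genes past a limma adjusted p of 0.05 in black and the others in grey. Lpp (1.05) and Bcl6 (0.38) are in red, and 4 genes described in the text are in blue.

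Mir28a, whose gene lies inside Lpp, is the precursor of miR-28. Its mature forms are shown because a microRNA inside a gene is often made from the transcript of that gene, with the seed (bases 2 to 8) in capitals, from the RefSeq table of GRCm38.p6.
mmu-miR-28a-5p, chr16:24827868-24827889, plus strand: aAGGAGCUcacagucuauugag
mmu-miR-28a-3p, chr16:24827908-24827929, plus strand: cACUAGAUugugagcugcugga
The Mir28a probe set (10434804) read 5.38, 5.69, 5.50 and 6.0 in WT replicates 1 to 4 and 6.11, 5.85, 5.90 and 6.11 in KO replicates 1 to 4, under the expression filter in all 8 arrays. WT replicate 4 lay above KO replicates 2 and 3, so the groups overlapped. The difference was 0.35 ± 0.124 (SE), and it was not tested because no array passed the filter. A probe set of this kind can read precursor or host RNA, and no mature microRNA was measured.

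No gene on either side of the pair was called. Of the 10 nearest genes with a named probe set on each side, 7 of 20 lay above the filter and could be tested, and 0 passed the threshold (limma, Benjamini-Hochberg adjusted p under 0.05 over 11926 genes; 0 at an unadjusted p under 0.05). Over all tested genes 0.646% were called higher and 0.671% lower (157 in all). That total was 783 without KO replicate 1, 72, 30 and 28 without WT replicates 1, 2 and 3, and 32, 34 and 68 without KO replicates 2, 3 and 4. The differences of the 7 ran from -0.12 to 0.05, with a median of 0.01 against -0.02 over all tested genes, and their adjusted p lay between 0.389 and 0.981.

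On the Bcl6 side, the nearest gene, Rtp2, a member of the receptor transporter family, differed by 0.02 ± 0.0703 (SE, limma adjusted p = 0.935). Sst, which encodes the peptide hormone somatostatin, differed by -0.12 ± 0.0605 (adjusted p = 0.389). Rtp4, Masp1 and Rtp1 followed and were under the filter, with differences of -0.08 ± 0.079, -0.06 ± 0.124 and -0.10 ± 0.107 (SE). These 5 differences were each smaller in size than that of Bcl6, and 4 of the 5 were negative.

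On the Lpp side, Tprg, the first gene with a named probe set, was under the filter and differed by 0.07 ± 0.0821 (SE). Trp63, the p53 relative p63 of stratified epithelia, differed by 0.01 ± 0.0827 (adjusted p = 0.981). P3h2, a collagen prolyl hydroxylase, and the claudin genes Cldn1 and Cldn16 were under the filter, with differences of 0.03 ± 0.0843, 0.08 ± 0.0817 and 0.09 ± 0.127. Il1rap, the accessory chain of the IL-1 receptor, was the seventh gene on this side and the second above the filter there, at 0.01 ± 0.0817 (adjusted p = 0.981).

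**Figure D3:**
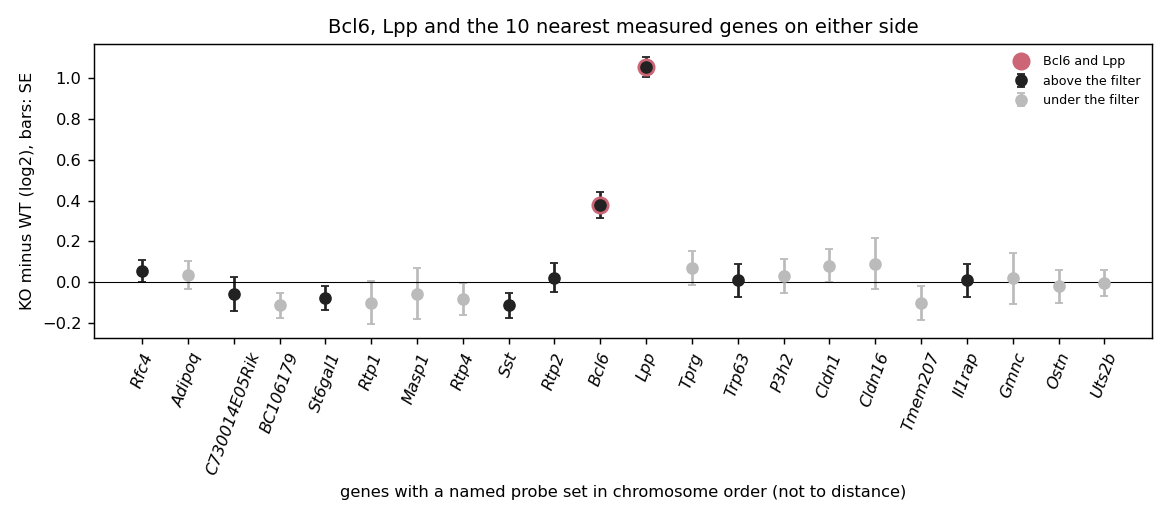
KO minus WT difference (log2, bars SE) of Bcl6, Lpp and the 10 nearest genes with a named probe set on either side, in chromosome order and not to distance. Black points were above the expression filter and grey points under it. Bcl6 (0.38) and Lpp (1.05) stand above the 20 neighbours, which lie between -0.12 and 0.09.

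Of the zyxin family, Ajuba also rose. Besides Lpp the family has 6 members on the array, of which 5 were tested. Of these, 1 passed in the higher and 0 in the lower direction (1 and 1 at an unadjusted p under 0.05). Of all tested genes 0.646% passed higher and 0.671% lower (6.15% and 10.5% at an unadjusted p under 0.05). The median difference of the 5 was -0.04, against -0.02 over all tested genes. Ajuba, a LIM protein of cell junctions that also acts in Hippo signalling, read 7.69, 8.05, 8.12 and 8.07 in WT replicates 1 to 4 and 8.83, 8.93, 9.09 and 9.12 in KO replicates 1 to 4. Every KO-labelled value stood at least 0.71 above every WT-labelled value, and the difference was 1.01 ± 0.101 (SE, limma adjusted p = 0.00293), beside 1.05 for Lpp probe set 10434806. Its adjusted p lay between 0.000802 and 0.0190 when each array was left out in turn. Ajuba was known to have risen in these arrays when the family was listed, so its call is not independent support for the list.

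The other family members did not pass. Zyx, which encodes zyxin, read 10.78, 10.82, 10.77 and 10.70 in WT replicates 1 to 4 and 10.72, 10.65, 10.63 and 10.63 in KO replicates 1 to 4, a difference of -0.11 ± 0.0461 (adjusted p = 0.266). Trip6, a zyxin relative that binds nuclear receptors and adhesion proteins, differed by -0.16 ± 0.0877 (adjusted p = 0.415), Limd1 by -0.01 ± 0.0464 (0.939) and Wtip, a partner of the kidney factor WT1, by -0.04 ± 0.0974 (0.912). Fblim1, which encodes migfilin, was under the filter in all 8 arrays, with means of 6.68 ± 0.193 and 6.60 ± 0.232 (SD, n = 4).

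Genes of proteins that bind Lpp or share its adhesion sites did not pass either. Of 23 listed, 22 had a named probe set and 16 were tested, and limma called 0 in either direction (0 higher and 7 lower at an unadjusted p under 0.05, against 6.15% and 10.5% of all tested genes). Their median difference was -0.12, against -0.02 over all tested genes, and 14 of the 16 differences were negative, against 57.9% of all tested genes. Evl, a VASP-family regulator of actin filaments in blood cells, had the smallest p: its WT-labelled mean was 11.5 ± 0.0842 and its KO-labelled mean 11.2 ± 0.0189 (SD, n = 4; difference -0.22 ± 0.0510, adjusted p = 0.0711). Without KO replicate 1, 2 of the list were lower, Evl at -0.22 (adjusted p = 0.0416) and Tln1, which encodes talin, at -0.16 (0.0454). Lower calls over all tested genes also rose in that fit, to 320 from 80 with every array kept.

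Known regulators of Bcl6 transcription in T cells had mostly negative differences, with 1 call. Of 22 listed, 20 had a named probe set and 18 were tested; 0 were called higher and 1 lower (1 and 11 at an unadjusted p under 0.05, against 6.15% and 10.5% of all tested genes). The median difference was -0.13, against -0.02 over all tested genes, and 16 of 18 differences were negative, against 57.9% of all tested genes. Of all tested genes 0.646% were called higher and 0.671% lower. Il6ra, the receptor chain for IL-6, which induces Bcl6 through STAT3, fell by 0.33 on the log2 scale (10.6 ± 0.0532 to 10.2 ± 0.0716, SD, n = 4, limma adjusted p = 0.0227). The call was lost without WT replicate 2 (adjusted p = 0.106), WT replicate 3 (0.0835) or KO replicate 2 (0.0757), 3 (0.0915) or 4 (0.0530). With each array left out in turn, the size of the Il6ra difference hardly moved (-0.35 to -0.30).

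Without KO replicate 1 the calls in the list of regulators numbered 0 higher and 7 lower. In that fit 463 genes were called higher and 320 lower over all tested genes, against 77 and 80 with all 8 arrays. The 7 were Il6ra, Stat3, Stat5a, Il21r, Klf2, Tox2 and Bach2, with differences from -0.38 to -0.18 and limma adjusted p from 0.00599 to 0.0454. Over all 8 arrays, Stat3, the factor downstream of IL-6 and IL-21 that activates Bcl6, differed by -0.20 ± 0.0434 (adjusted p = 0.0574) and Stat5a, a factor downstream of IL-2 that lowers it, by -0.20 ± 0.0475 (0.0763). Il21r, the IL-21 receptor, differed by -0.23 ± 0.0576 (0.0851). Il2ra, the IL-2 receptor chain CD25, and Irf4 were the 2 with positive differences, 0.11 ± 0.0452 (0.268) and 0.10 ± 0.0514 (0.390). These 5 genes were picked by their roles, after their values were seen.

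Corepressors that Bcl6 recruits and its BTB zinc finger relatives held no call. Of 16 corepressor genes, 14 were tested, and limma called 0 (2 higher and 2 lower at an unadjusted p under 0.05, against 6.15% and 10.5% of all tested genes), with a median difference of -0.03 against -0.02. Bcor, the BCL6 corepressor that binds the BTB domain, had the smallest p, with means of 9.48 ± 0.0479 and 9.26 ± 0.118 (SD, n = 4; difference -0.22 ± 0.0628, adjusted p = 0.117). Of 8 relatives, 7 were tested and 0 called (0 and 1 at an unadjusted p under 0.05). Zbtb32, a BTB factor of activated lymphocytes, had the smallest p among them (-0.30 ± 0.111, adjusted p = 0.211). Bcl6b, the closest relative of Bcl6, was under the filter in all 8 arrays and its means differed by -0.01 (6.80 ± 0.0726 and 6.80 ± 0.0751, SD, n = 4).

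**Figure D4:**
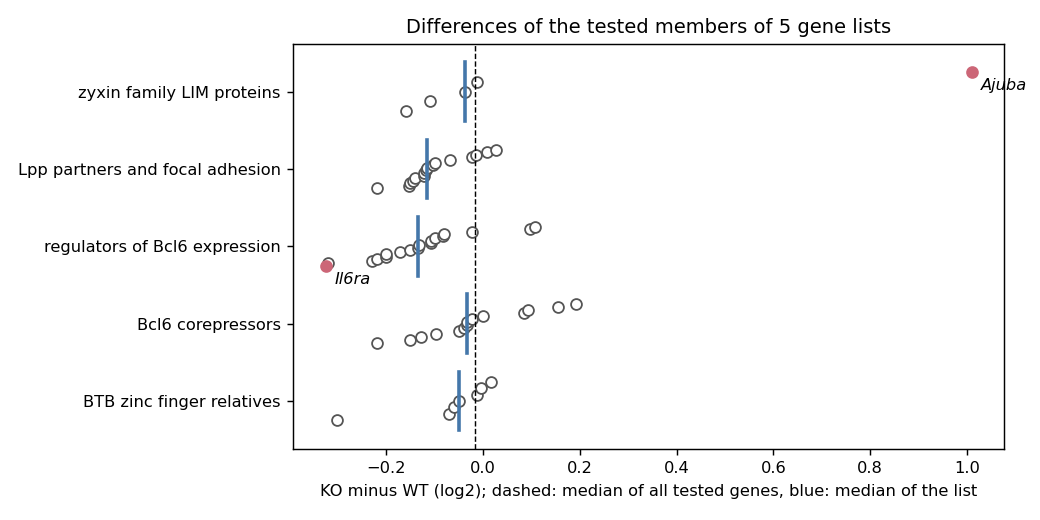
KO minus WT difference (log2) of the tested members of 5 gene lists, 1 point a gene, with genes past a limma adjusted p of 0.05 in red and named. The blue bars are list medians (-0.13 to -0.03) and the dashed line is the median of all tested genes (-0.02). Ajuba lies at 1.01 and Il6ra at -0.33.

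The genes whose values over the 8 arrays most resembled those of Lpp were found by centring each gene on its mean and averaging the absolute difference from Lpp over the 8 arrays. B4galt4, a galactosyltransferase gene that is also on chromosome 16, was nearest, at 0.0994 on the log2 scale, followed by Ajuba (0.109), Neb, which encodes the muscle protein nebulin (0.117), F2rl2, a thrombin receptor family member (0.131), and Dapl1 (0.134). The median distance over tested genes was 0.536, and Bcl6 ranked 72 by likeness to Lpp, at 0.339. Genes found this way differ between the genotypes by construction, so no test is given. Their differences were 0.87 (B4galt4), 1.01 (Ajuba), 1.22 (Neb), 1.31 (F2rl2) and 0.79 (Dapl1), all positive, beside 1.05 for Lpp.

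Bcl6 had other neighbours by the same measure. Mlkl, the effector of necroptosis, was nearest at 0.0425, then Rybp, a Polycomb protein (0.0450), the T cell receptor segment Trav19 (0.05), Man1a, a mannosidase of the Golgi (0.0509), and Bcl2l11, which encodes the pro-apoptotic protein Bim (0.0553). Their differences lay between 0.32 and 0.39, beside 0.38 for Bcl6, and the median distance of all tested genes from Bcl6 was 0.207. No gene was among the 5 nearest of both Lpp and Bcl6. The distance compares both size and shape, so a gene with a larger difference than Bcl6, such as Lpp (rank 11757), lies far from it.

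**Figure D5:**
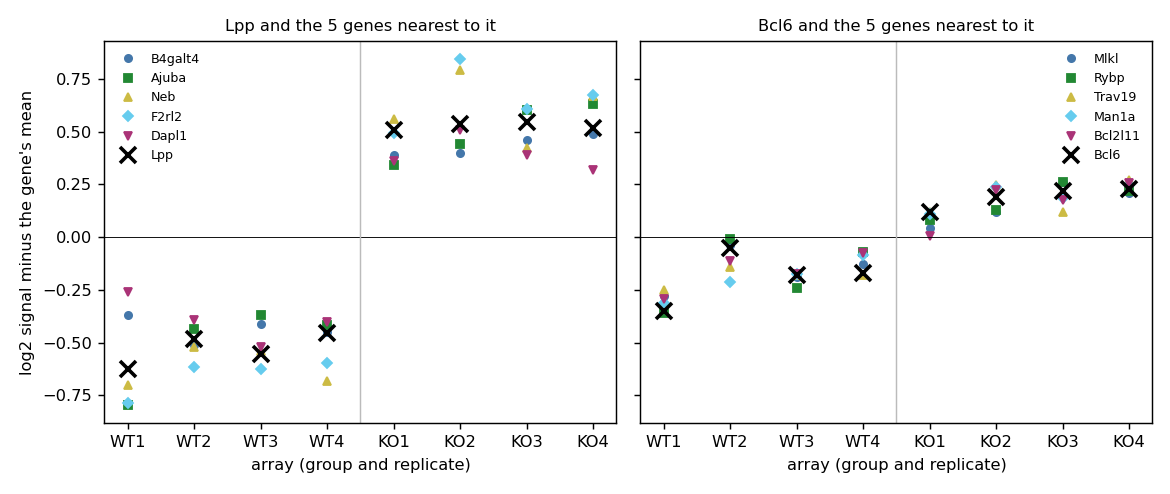
Log2 signal minus the gene's own mean over the 8 arrays for Lpp (left, crosses) and Bcl6 (right, crosses) and the 5 tested genes nearest to each. Lpp runs from -0.62 in WT replicate 1 to 0.55 in KO replicate 3, and Bcl6 from -0.35 in WT replicate 1 to 0.23 in KO replicate 4.

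The labelled cell type was checked against its markers. The 7 measured T cell markers had differences between -0.02 and 0.11, with 0 called by limma (0 at an unadjusted p under 0.05), and a mean level of 12.6 to 12.7 in every array. The 5 Tfh markers were all above the filter and 0 were called by limma. At an unadjusted p under 0.05, 2 were higher and 1 lower, against 6.15% and 10.5% of all tested genes. Sh2d1a, which encodes the adaptor SAP, differed by 0.28 ± 0.115 (SE, adjusted p = 0.250), the cytokine gene Il21 by 0.11 ± 0.0484 (0.268), and Icos, a costimulatory receptor, by -0.05 ± 0.0449 (0.675). Pdcd1, which encodes PD-1, differed by -0.22 ± 0.0559 (adjusted p = 0.0931), and the chemokine receptor gene Cxcr5 by -0.26 ± 0.129 (0.361). Of 7 measured B cell markers, cells in which Bcl6 can be abundant, 1 (Cd79b) was above the filter, and the list mean ran from 6.12 to 6.22 (WT) and from 5.96 to 6.31 (KO). Of 11 stromal, muscle and endothelial markers, cells in which Lpp is abundant, 6 were above it, with list means of 7.27 to 7.32 and 7.18 to 7.41. The 6 myeloid markers were all under the filter, with list means of 6.10 to 6.21 and 6.21 to 6.24. Lyz2, the lysozyme gene of macrophages and neutrophils, had means of 6.10 ± 0.250 and 6.56 ± 0.243 (SD, n = 4), a difference of 0.46 ± 0.141 (SE) with overlapping groups, while the other 5 lay between -0.06 and 0.04; the part of such cells in any difference was not tested. Of 4 platelet and 2 CD8 T cell markers, 2 and 2 were above it, with differences of these between -0.06 and 0.03, and 0 were called. In RNA from whole cultures, fewer cells of a type and less RNA per cell cannot be told apart.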

How the data were processed

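Expression was measured on 8 arrays from 100 ng of total RNA each. The authors deposited log2 values with 2 decimals, 1 for each probe set and array. RMA and Partek are named, per the submitters' processing notes; versions, order of steps and genome build are not given in the sources used here. RMA brings the arrays to similar distributions, so a shift shared by all genes would be removed. The deposited distributions were not equal. Array medians ran from 7.35 to 7.42, and the 40th percentiles of the named probe sets from 6.91 to 7.15. The number of arrays limits the precision.

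Of 35556 probe sets, 21789 had 1 gene symbol in the platform annotation, 1621 had several and 12146 were not listed and stay unnamed; 21698 of the 21789 matched the RefSeq gene table by Entrez identifier. The probe set with the highest mean stood for a gene. Genes above the 40th percentile of the named probe sets in at least 4 arrays were tested (11926, Bcl6 kept whatever its level) with limma 3.58.1 in R 4.3.3, two-sided, without a block, with Benjamini-Hochberg adjustment and a threshold of 0.05. Standard errors of the Bcl6 and Lpp probe sets come from the same model fitted to the 13115 named probe sets above the filter, and those of Mir28a and other genes under it from a fit to all named probe sets. The genes and lists were chosen with earlier results of these data known. Named were list members past the threshold (in a list with none, the one with the smallest p) and all zyxin relatives. The 5 nearest measured neighbours on each side and the 5 genes nearest to Lpp and to Bcl6 were also named. Il1rap, 5 regulators, the calls without KO replicate 1, Bcl6b, Cd79b, Cd8a, Cd8b1, Lyz2 and the Tfh markers were named after their values were seen. Some genes of the lists were not analysed here. Steps were tested on simulated data. Same-numbered arrays of the 2 groups correlated in their deviations at 0.0111, 0.145, -0.174 and 0.308 for replicates 1 to 4. Only replicates 2 and 4 exceeded the minimum of 0.1 set for pairing. With these mixed values and no pairing stated in the labels, the numbers were not taken as pairs.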

Additional observations from a re-analysis of the deposited data

Results flagged for a closer look

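In 4 of 60 groups of 4 arrays behind the genes described here, 1 array lay far from the other 3; chance gives this in about 1 in 20 groups. Ajuba, the zyxin relative that rose, read 7.69 in WT replicate 1, below the 8.05 to 8.12 of the other WT-labelled arrays. F2rl2, one of the genes nearest to Lpp by pattern, read 7.57 in WT replicate 1, where the others read 7.73 to 7.76. Sst, next but one to Bcl6, read 7.41 in WT replicate 3 against 7.24 to 7.26 in the others. P3h2, on the Lpp side, read 5.96 in KO replicate 4 against 6.28 to 6.34. The probe sets of Bcl6 and Lpp held no such array by this measure.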

How the results depend on the processing

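The Bcl6 and Lpp probe sets stayed higher in the KO-labelled arrays under every alternative run. Leaving out each array in turn gave 0.32 to 0.42 for Bcl6, and 1.02 to 1.08, 0.83 to 0.92 and 0.65 to 0.75 for Lpp probe sets 10434806, 10434782 and 10434802; the mean over the probe sets of Lpp gave 0.88. The number of genes past the threshold, 157, was less stable: it was 322 after quantile normalization, 78 after centring on array medians (48 higher and 30 lower), 58 without a filter, 354 with an intensity trend and robust prior, 1980 with array weights, 446 without KO replicate 1 and WT replicate 3, 27 at a threshold of 0.01, 468 at 0.1, and 28 to 783 with each array left out. With a replicate block it was 36, and the differences of Bcl6 and Lpp were 0.38 and 1.05; the arrays share only a number, and the cause of these shifts was not tested. The percentile taken over all probe sets, chosen after seeing the data, gave 111.

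Of the lists, regulators of Bcl6 had 1 lower call, which became 2 after quantile normalization or with the 50th percentile filter, 0 without a filter, with the replicate block or at 0.01, 3 without KO replicate 1 and WT replicate 3, 6 with the trend or at 0.1, 10 with array weights, and 0 to 7 with each array left out. Lpp partners went from 0 lower to 1 (quantile), 2 (trend, or 0.1), 5 (array weights) and 0 to 2 (each array left out). Array weights also gave 1 lower zyxin relative, 2 higher regulators, 2 higher and 1 lower corepressors and 1 lower BTB relative. Lower calls over all tested genes, 80 in the main fit, moved as well. They numbered 149 after quantile normalization, 139 with the 50th percentile filter, 21 without a filter, 11 with the replicate block and 8 at 0.01. Without KO replicate 1 and WT replicate 3 there were 151, with the trend 203, and at 0.1 there were 286. Array weights gave 970 lower and 1010 higher, and leaving out each array gave 8 to 320 lower. Ajuba passed under every alternative run in which its call was read, which leaves out the run that tested every probe set. Probe sets under the filter, Mir28a among them, have no test.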
